A study of Danio rerio with 24 samples.

Results

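The exocrine pancreas enzymes are secreted digestive proteins of the acinar cells, and their genes were chosen by symbol: prss1, prss59.1, prss59.2, ctrb1, ela2, ela2l, ela3l, cpa5, cpb1 and cel.1. Of these 10 genes, 8 matched 1 Ensembl gene ID each among the 32105 IDs counted in every library. They are prss1 (ENSDARG00000042993), prss59.1 (ENSDARG00000079274), prss59.2 (ENSDARG00000073742), ctrb1 (ENSDARG00000090428, listed under its synonym ctrb.1), ela2 (ENSDARG00000056744), ela2l (ENSDARG00000056765), ela3l (ENSDARG00000007276) and cpb1 (ENSDARG00000045442, listed in capitals). The name ctrc also led to the ID of ela2l, which is grouped with the elastases here by its symbol. For cel.1, 2 IDs carried the symbol CEL (ENSDARG00000017490 and ENSDARG00000029822) and the names tables do not say which of them is cel.1, so both are described. No ID was paired with cpa5, and the 2 IDs with the symbol CPA1 (ENSDARG00000021339 and ENSDARG00000030915) are described as its relatives, outside the counts of members.

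The values come from 24 RNA-seq libraries of zebrafish in 8 groups of 3 biological replicates. As embryos, the fish had been exposed to PCB126, an environmental contaminant and agonist of the aryl hydrocarbon receptor (AHR), or to its solvent DMSO, in 0.3x Danieu's solution. The embryos, taken whole at 48 hours post-fertilization (hpf), had DMSO or 0.3 nM, and the larvae, taken whole at 5 days (dpf), had DMSO, 0.3 nM or 1.2 nM. Brains were taken at 4 months from fish that had DMSO, 0.3 nM or 1.2 nM. The adults had been reared in clean water. The sources used here do not give the strain, the sex, the number of fish behind a library or whether larvae had eaten by 5 dpf.

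Acinar cells make digestive enzymes as inactive precursors, store them in granules and release them through ducts into the gut. Trypsins cut proteins after basic residues and activate the other precursors, chymotrypsins cut after large hydrophobic residues, elastases cut after small ones, carboxypeptidases trim the ends of the peptides, and carboxyl ester lipase splits dietary esters. In zebrafish the exocrine pancreas grows out during the days between hatching and first feeding, and these genes are standard markers of differentiated acinar cells. In whole fish, fewer acinar cells and less RNA per acinar cell cannot be told apart.

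Library totals lay between 12480715 and 23022236 reads. The exposure itself was visible in cyp1a, the standard AHR target, which was called higher at 48 hpf (15.8 ± 4.53 CPM in DMSO and 199 ± 48.8 CPM at 0.3 nM, mean ± SD, n = 3). In larvae cyp1a was at 28.7 ± 1.49 CPM in DMSO, 101 ± 52.8 CPM at 0.3 nM and 685 ± 341 CPM at 1.2 nM, and it was not called there (adjusted p = 0.995 and 0.0933, edgeR). Of 7 AHR-induced genes all 7 lay above DMSO in larvae at 1.2 nM, and 1 was called, cyp1c2 (log2 fold change 1.61, SE 0.21, adjusted p = 0.0341, edgeR). The brain label held for neural and glial markers: all 10 measured brain markers were called higher in DMSO brain than in DMSO larvae (39.9% of all genes tested were), and their summed level was 9336 to 17211 CPM in brain libraries against 872 to 1107 CPM in embryos and larvae. CPM are read counts scaled to a common library total with TMM normalization within an age, and "called" means an adjusted p under 0.05 in edgeR's quasi-likelihood test. Levels are not compared between genes, since transcript lengths were not used.

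Every matched enzyme rose between 48 hpf and 5 dpf in DMSO fish, from at most 40 reads per library to at least 6794. All 8 were called higher in DMSO larvae than in DMSO embryos, where 32.3% of the 22545 genes tested were called higher. Among embryos alone, prss59.2, ctrb1, ela2l and ela3l did not pass the filter on low counts. They entered this fit through the larvae, where they are high, so a call as higher was close to given for them. The log2 fold changes ran from 8.40 for cpb1 (SE 0.27) to 12.98 for ela2l (SE 0.43), with a median of 10.68 against 0.00 over all genes. For all 8 the libraries of the DMSO larvae and embryos did not overlap in RPM (reads scaled by the library total alone, for use across ages), and 38.9% of all genes were likewise higher without overlap. Together the 8 genes took 93 to 137 reads of a DMSO embryo library and 0.720% to 0.857% of all reads of a DMSO larval library.

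**Figure D1:**
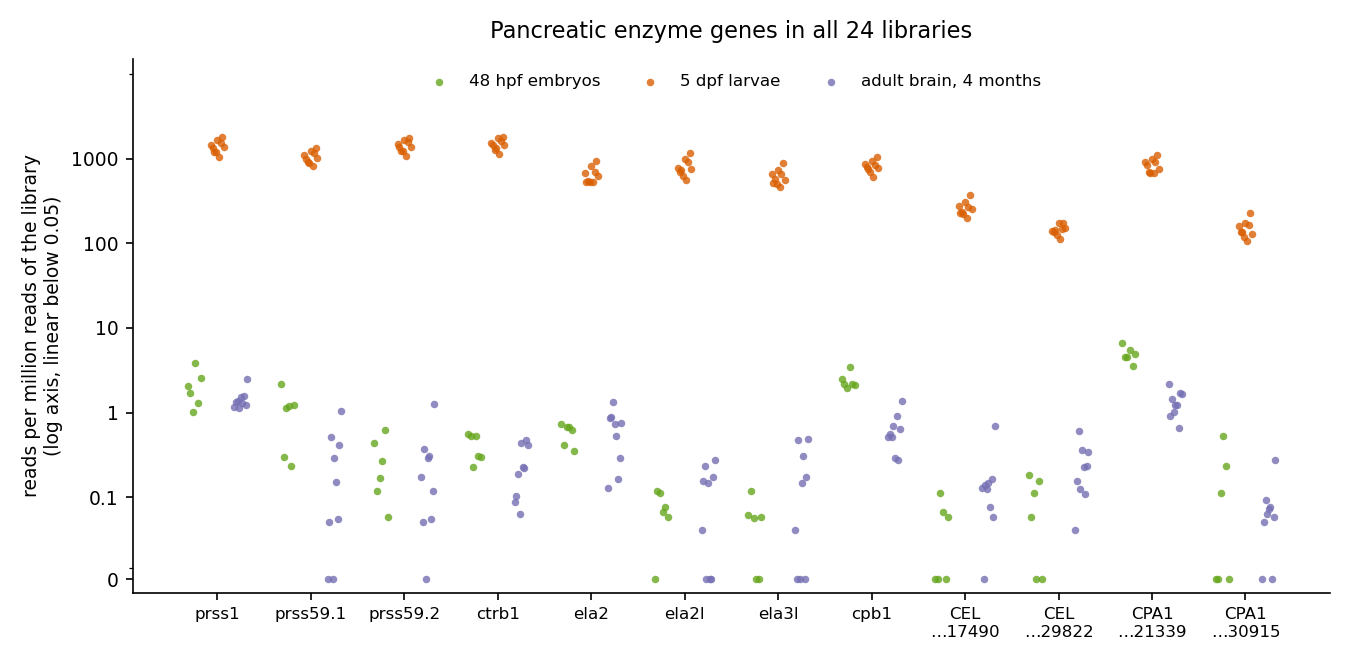
RPM (reads scaled by the library total, log axis, linear below 0.05) of the 8 matched enzymes and of the CEL and CPA1 gene IDs, 1 point per library, coloured by age and with all exposures shown alike. Larval libraries of the 8 matched enzymes lie between 467 and 1826 RPM, while those of embryos and brain lie below 4; heights are not comparable between genes because lengths differ.

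Among the trypsins, a DMSO embryo library held at most 35 reads of any gene. The trypsin gene prss1 had 33, 29 and 18 reads in the DMSO embryos (replicates 1 to 3 here and below) and 21914, 17793 and 15108 in the DMSO larvae, a log2 fold change of 9.63 (SE 0.30, adjusted p = 2.60e-16, edgeR quasi-likelihood test). The trypsin-like serine protease gene prss59.1 had 35, 5 and 20 reads in embryos and 16480, 13180 and 11288 in larvae (9.61, SE 0.51, adjusted p = 2.05e-11). Its neighbour prss59.2 had 7, 2 and 3 reads in embryos and 22216, 18399 and 15190 in larvae (12.35, SE 0.51). As prss59.2 entered this fit through the larvae, no p is given for it. The larval libraries of the trypsins were thus far above every embryonic one, and among DMSO embryos replicate 2 was the lowest for prss59.1 and prss59.2.

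As a ratio of the reads pooled over 3 libraries per group, the rise was 852-fold for prss1 (exact 95% interval 685 to 1075), 849-fold for prss59.1 (659 to 1112) and 5783-fold for prss59.2 (3311 to 11193). The intervals of these pooled ratios cover counting error only. The interval of prss59.2 lay above those of the other trypsins. In the RefSeq annotation of GRCz12tu prss59.1 and prss59.2 lie next to each other, and as reads matching more than 1 gene are left uncounted, the split between such similar copies is uncertain.

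The chymotrypsinogen gene ctrb1 had 9, 9 and 4 reads in DMSO embryos and 23066, 19488 and 15733 in DMSO larvae. Its log2 fold change was 11.56 (SE 0.27), and the pooled ratio was 3295 (2176 to 5258). As ctrb1 entered this fit through the larvae, no p is given for it.

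The elastase genes had at most 12 reads per DMSO embryo library and at least 6794 in larvae. For ela2, DMSO embryos held 12, 7 and 12 reads and DMSO larvae 10122, 7060 and 6794 (log2 fold change 9.79, SE 0.39, adjusted p = 7.12e-14). Its neighbour ela2l was at 0, 2 and 2 reads in embryos and 11580, 9407 and 9289 in larvae (12.98, SE 0.43). For ela3l the embryos had 1, 2 and 1 reads and the larvae 9719, 6870 and 7146 (12.62, SE 0.51). No p is given for ela2l and ela3l, which entered this fit through the larvae. At 4 reads over the DMSO embryos each, ela2l and ela3l were near the limit of this depth, and their pooled ratios of 9413 (3676 to 34550) and 7379 (2882 to 27086) are correspondingly loose. The pooled ratio of ela2 was 962 (677 to 1416). Like the prss59 pair, ela2 and ela2l are neighbours in that annotation, with the same uncertainty about their split.

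The carboxypeptidase B gene cpb1, whose product removes basic residues from peptide ends, had the smallest fold change of the 8. It had 40, 37 and 35 reads in DMSO embryos and 12804, 10653 and 9294 in DMSO larvae (log2 fold change 8.40, SE 0.27, adjusted p = 3.95e-16, edgeR quasi-likelihood test). The pooled ratio was 364 (302 to 442). The related carboxypeptidase A gene CPA1 ENSDARG00000021339 had 106, 76 and 80 reads in embryos and a log2 fold change of 7.21 (SE 0.29). The other one, CPA1 ENSDARG00000030915, had 0, 0 and 2 reads in embryos and a log2 fold change of 11.49 (SE 0.52).

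Both CEL genes, which encode carboxyl ester lipases, were close to absent from embryos. CEL ENSDARG00000017490 had 0, 0 and 2 reads in DMSO embryos and 4114, 3044 and 2954 in DMSO larvae (log2 fold change 12.28, SE 0.43). CEL ENSDARG00000029822 had 3, 1 and 2 and then 2100, 1850 and 1813 (10.05, SE 0.34). Whichever of them is cel.1, the lipase was called higher in larvae, as both were. Neither passed the filter among embryos alone, so both entered this fit through the larvae.

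**Figure D2:**
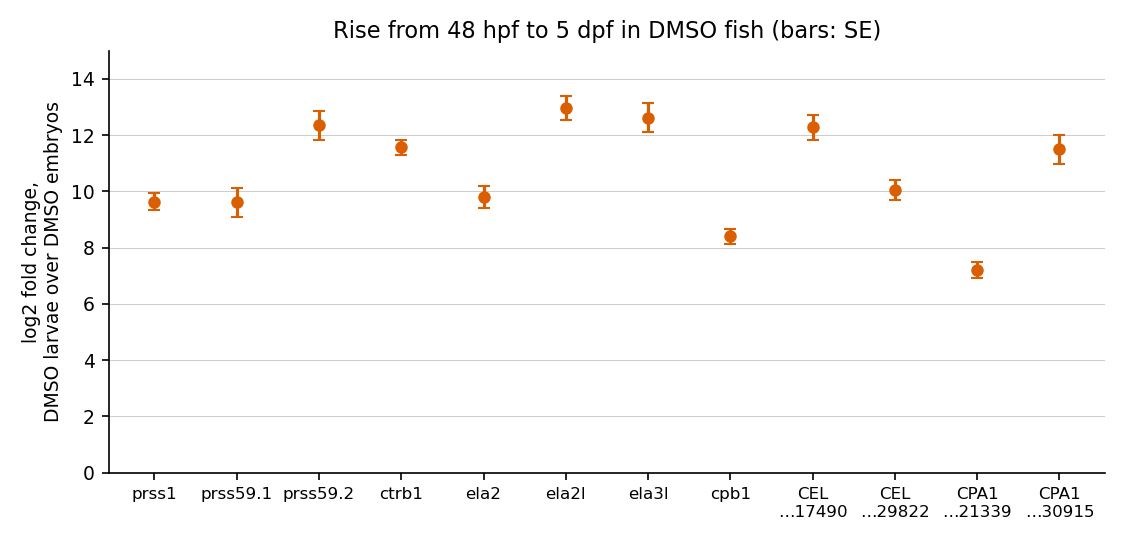
Fitted log2 fold change between DMSO larvae at 5 dpf and DMSO embryos at 48 hpf for each enzyme gene and the CEL and CPA1 gene IDs, with bars of 1 SE (edgeR, fit of all 24 libraries). Every value lies above 7, with cpb1 the lowest of the 8 matched enzymes at 8.40 and ela2l the highest at 12.98.

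Other secreted acinar products rose in the same interval. Of 22 matched genes of this kind, 21 could be tested, 20 were called higher and 1 lower, with a median log2 fold change of 8.91. Among embryos alone only 2 of the 22 passed the filter, so most entered this fit through the larvae. The rise was 14.20 for the chymotrypsinogen gene ctrb.3 (SE 0.38), 12.33 for ctrb.2 (SE 0.47) and 12.76 for ctrl (SE 0.38), and 13.43 for the amylase gene amy2a (SE 0.66). The 1 gene called lower was amy2al1, another amylase gene, at 1.53 ± 0.650 CPM in embryos and 0.507 ± 0.212 CPM in larvae (-1.64, SE 0.61). Where a gene had no read in the DMSO embryos, only a bound can be given, from a floor of 3 reads over the group: the astacin-like metalloprotease gene c6ast4 was at least 4841-fold higher in larvae, and cela1.5 at least 14.5-fold. With the 6 such genes set at their bounds the median was 7.35.

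The transcription factors of the pancreas did not rise with the enzymes as a group. Of 15 tested, 6 were called higher and 7 lower (31.3% of all genes were called lower), with a median of -0.23. Members of the list known from acinar cells were found on both sides. For rbpjl, the acinar partner of Ptf1a, there was no read in DMSO embryos and 12 to 25 reads per DMSO larval library, which is at least 23.2-fold. The secretory-cell factor bhlha15 (Mist1) was at 0.836 ± 0.221 CPM in embryos and 3.06 ± 0.410 CPM in larvae (1.80, SE 0.37). By contrast ptf1a, which specifies the pancreas and is also used in the hindbrain and retina, fell from 4.65 ± 0.679 to 2.32 ± 0.305 CPM (-1.07, SE 0.25). Also higher were tfeb (1.05), pdx1 (0.88) and nr5a2 (0.53), while mnx1 (-1.34), onecut1 (-0.98), prox1a (-0.74), foxa2 (-0.62), foxa3 (-0.50) and xbp1 (-0.27) were lower, and gata4 (-0.23) and gata6 (0.12) were not called.

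Most genes of the general secretion machinery were lower in whole larvae than in whole embryos. This list is not particular to the pancreas, as it summed to 1898 to 1967 CPM in DMSO brain and 2745 to 2944 CPM in DMSO larvae. Its change in acinar cells cannot be read from whole fish. Of 36 genes of the endoplasmic reticulum, 2 were called higher and 30 lower in DMSO larvae, with a median of -0.57. One of the 2 was pdia2, a disulfide isomerase that is known from the pancreas in mammals, at 6.30 (SE 0.14), and the other was the stress factor ddit3 at 0.74 (SE 0.13). Chaperones of broad use such as hspa5 (-0.98, SE 0.17) and hsp90b1 (-0.90, SE 0.17) fell. Of 12 tested endocrine pancreas genes 4 were called higher and 5 lower, with a median of 0.13. Insulin, ins, had a log2 fold change of 0.43 (SE 0.21, adjusted p = 0.0811, edgeR) and was not called, while glucagon, gcga, was called higher at 0.62 (SE 0.21, adjusted p = 0.0134). Of 19 intestinal genes 13 rose and 6 fell (median 6.20), and of 23 liver genes 8 rose and 12 fell (median -0.31). Among embryos alone 11 of the 19 intestinal genes passed the filter.

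Adult brain held almost no enzyme reads. All 8 genes were called lower in DMSO brain than in DMSO larvae, where 37.5% of all genes were called lower. Among brains alone, prss59.1, prss59.2, ctrb1, ela2l and ela3l did not pass the filter on low counts. They entered this fit through other ages, so a call as lower was close to given for them. The log2 fold changes ran from -9.78 for ela2 (SE 0.38) to -13.29 for ctrb1 (SE 0.29), and the larval and brain libraries of each gene did not overlap, as for 40.9% of all genes in this direction. The 8 genes together took 42 to 117 reads of a brain library. With the libraries of all exposures included, brain and embryos overlapped in RPM for 7 of the 8 genes. No share of all genes overlapping between these ages was set beside this count. At so few reads an overlap does not show equal levels. Medians went both ways, such as 1.17 RPM in embryos and 0.153 in brain for prss59.1, and 0.0577 and 0.146 for ela3l. The exception was cpb1, at 1.97 to 3.42 RPM in embryos and 0.277 to 1.39 in brain, and the related CPA1 ENSDARG00000021339 did not overlap either. Within the DMSO libraries ctrb1 did not overlap, at 0.225 to 0.557 RPM in embryos and 0.0869 to 0.188 in brain. These ctrb1 levels rest on 4 to 9 reads per embryo library and 2 to 4 per brain library.

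The few brain reads of some members were unevenly spread over libraries. For prss59.1 the DMSO brains had 0, 1 and 11 reads, those after 0.3 nM had 0, 4 and 2, and those after 1.2 nM had 1, 7 and 15. For prss59.2 they were 4, 1 and 8, then 0, 4 and 4, then 1, 2 and 18. For ela3l they were 1, 0 and 10, then 0, 2 and 4, then 0, 3 and 7. Replicate 3 was the highest or tied highest for these genes in each group other than prss59.1 at 0.3 nM. Over all 8 genes the reads were 50, 61 and 97 in DMSO, 51, 53 and 49 after 0.3 nM and 42, 60 and 117 after 1.2 nM. After 0.3 nM replicate 3 was thus not the highest. In the brain comparisons 3 of the 8 genes had enough reads for a test (prss1, ela2 and cpb1) and 0 were called, while 13.7% of all genes were called after 0.3 nM and 9.05% after 1.2 nM against DMSO, and 0.0972% between the doses.

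For prss1 the brain libraries had 27, 26 and 29 reads in DMSO, 18, 21 and 17 after 0.3 nM and 28, 21 and 36 after 1.2 nM. Its log2 fold changes were -0.01 (SE 0.31), 0.40 (SE 0.30) and 0.41 (SE 0.31) for 0.3 nM, 1.2 nM and the difference of the doses. For cpb1 these values were 0.20 (SE 0.57), 0.45 (SE 0.56) and 0.25 (SE 0.57), and for ela2 0.45 (SE 0.67), -0.68 (SE 0.72) and -1.14 (SE 0.72). Without replicate 3 of 1.2 nM the values at that dose against DMSO were 0.08 for prss1 and -0.24 for cpb1, and without replicate 3 of 0.3 nM cpb1 was at -0.12 at 0.3 nM. The adjusted p (edgeR) of these 9 tests lay between 0.419 and 0.989. None of the 9 had an unadjusted p under 0.05. DESeq2 gave an adjusted p only for prss1 after 0.3 nM and for prss1, cpb1 and ela2 between the doses, and none of these was called. For the rest of the 9 it gave no adjusted p, so it could not call them.

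At 48 hpf the enzymes were too low for most of them to be tested against exposure. Of the 8 genes 4 passed the filter on low counts and 0 were called after 0.3 nM PCB126, with 0 also at an unadjusted p under 0.05, while 0.00987% of 20265 genes were called (2 genes). The median of the 4 log2 fold changes was -0.00 and that of all genes 0.00. Trypsin prss1 had 58, 17 and 44 reads at 0.3 nM beside 33, 29 and 18 in DMSO, a log2 fold change of 0.71 (SE 0.37), and its groups overlapped. For prss59.1 the exposed libraries had 18, 3 and 21 reads beside 35, 5 and 20 (-0.38, SE 0.66), so that replicate 2 was low in both groups. For ela2 they had 10, 8 and 6 beside 12, 7 and 12 (-0.20, SE 0.42).

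Carboxypeptidase cpb1 had 51, 28 and 36 reads at 0.3 nM beside 40, 37 and 35 in DMSO embryos (0.20, SE 0.25). All 4 tests had an adjusted p of 1.0 (edgeR quasi-likelihood test). The other 4 genes had at most 9 reads in any embryo library, which was ctrb1 in DMSO, so only a large difference could have been detected. DESeq2 fitted them with an SE from 0.74 for ctrb1 to 2.11 for ela3l and called 0. Same-numbered libraries deviated together at this age, so the fit was repeated with a block on replicate number, in which prss1 was at 0.69 (SE 0.28, unadjusted p = 0.0261, adjusted p = 0.591, edgeR).

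In larvae at 5 dpf, where the enzymes are abundant, no member was called in any of the 3 comparisons. After 0.3 nM the fitted changes lay around 0, and after 1.2 nM all 8 genes lay above DMSO by 1.13-fold to 1.3-fold, with overlapping groups in each gene. The count of called members was 0 of 8 against 0.0% of all genes for 0.3 nM, 0 of 8 against 0.046% for 1.2 nM, and 0 of 8 against 0.023% between the doses. Without a replicate block, an unadjusted p under 0.05 was reached by 0 of 8 in each (by 1034, 1472 and 993 of all 21719 genes). With a block on replicate number it was reached by 3 of 8 at 1.2 nM against DMSO and 5 of 8 between the doses. The share of all genes in the blocked fit is not given, so these counts are not read as a result. DESeq2 called 0 in each comparison. The groups of each of the 8 overlapped, where 5.45%, 6.17% and 5.0% of all genes were higher without overlap in these comparisons. The share of all genes that were lower without overlap is not given.

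Trypsin prss1 was at 1467, 1309 and 1198 CPM in DMSO larvae, 1212, 1656 and 1048 CPM at 0.3 nM and 1530.1, 1815 and 1356 CPM at 1.2 nM. Its log2 fold change was -0.02 (SE 0.18) at 0.3 nM and 0.24 (SE 0.18) at 1.2 nM. The highest library was replicate 2 of 1.2 nM, and the second highest came from 0.3 nM, also replicate 2. The same order held for prss59.1 (1103, 969.6 and 895 CPM in DMSO, 904, 1253 and 811 CPM at 0.3 nM, 1167, 1332 and 1004 CPM at 1.2 nM), with changes of -0.00 and 0.24 (SE 0.17 each). For prss59.2 the levels were 1487, 1354 and 1205 CPM, then 1255, 1668 and 1082 CPM, then 1565, 1779 and 1373 CPM, with changes of -0.01 and 0.22 (SE 0.17 each).

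Chymotrypsinogen ctrb1 was at 1544, 1434 and 1248 CPM in DMSO, 1329, 1747 and 1139.9 CPM at 0.3 nM and 1634, 1843 and 1458 CPM at 1.2 nM. It had the narrowest spread of the 8 genes and changed by -0.00 and 0.22 (SE 0.16 each). Even for this gene, whose SE was the smallest, the adjusted p at 1.2 nM was 0.828 (edgeR quasi-likelihood test).

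The elastases had the widest spread and, at 1.2 nM against DMSO, the largest fitted changes. Levels of ela2 were 678, 519 and 539 CPM in DMSO, 534, 831 and 531 CPM at 0.3 nM and 699, 936 and 620.3 CPM at 1.2 nM, with changes of 0.13 and 0.38 (SE 0.24 each). Levels of ela2l were 775, 692 and 737 CPM, then 630.05, 1002 and 556 CPM, then 931, 1185 and 747 CPM, with changes of -0.01 and 0.38 (SE 0.26 each). Levels of ela3l were 651, 505 and 567 CPM, then 503, 746 and 464 CPM, then 656, 886 and 560.1 CPM, with changes of -0.01 and 0.29 (SE 0.24 each). In all 3 genes replicate 2 stood above its 2 partners at both doses, while in DMSO replicate 1 was the highest.

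Carboxypeptidase cpb1 was at 857, 784 and 737 CPM in DMSO, 695, 945 and 611 CPM at 0.3 nM and 857, 1062 and 767 CPM at 1.2 nM. Its changes of -0.08 and 0.18 (SE 0.18 each) were the lowest of the 8 in both comparisons. Of the lipase genes, CEL ENSDARG00000017490 changed by -0.00 and 0.30 (SE 0.21 each), with overlapping groups. CEL ENSDARG00000029822 was at 141, 136 and 144 CPM in DMSO, 126, 174 and 113 CPM at 0.3 nM and 148, 177 and 150.1 CPM at 1.2 nM, with changes of -0.03 and 0.17 (SE 0.14 each). Its 1.2 nM libraries lay just above all 3 DMSO libraries without overlap, as for 6.17% of all genes, and it was not called (adjusted p = 0.833, edgeR). The CPA1 genes changed by -0.05 and 0.20 (ENSDARG00000021339, SE 0.22) and by -0.09 and 0.29 (ENSDARG00000030915, SE 0.27).

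**Figure D3:**
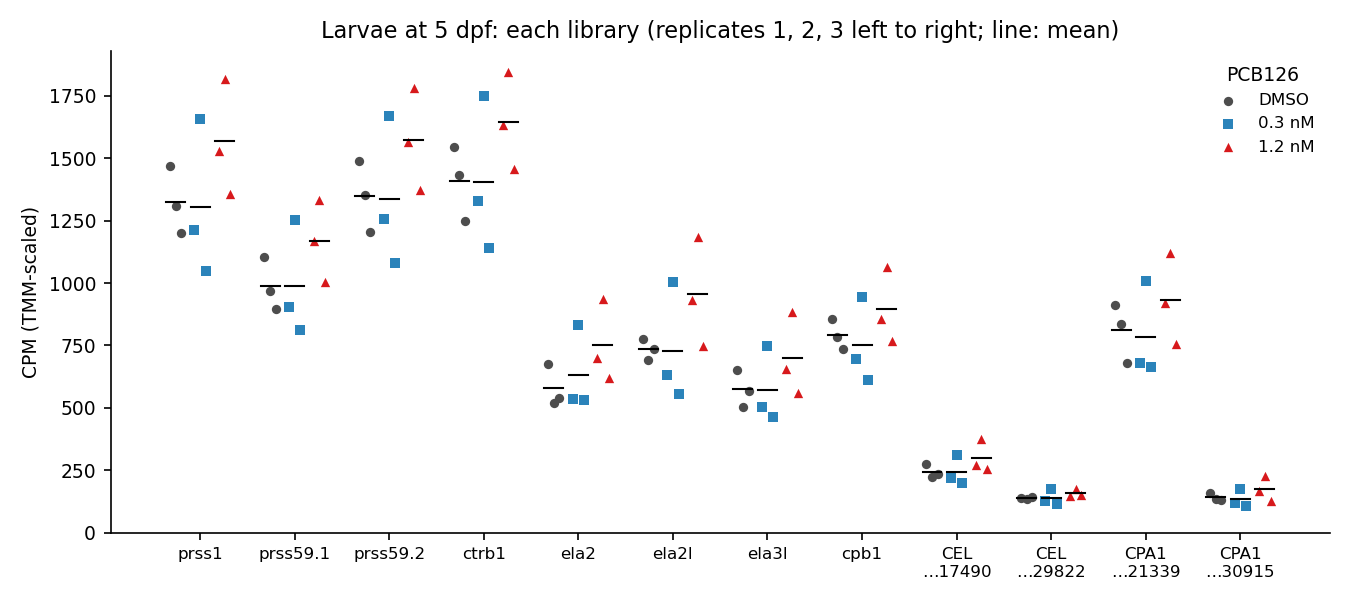
CPM of each enzyme gene, and of the CEL and CPA1 gene IDs, in the 9 larval libraries, with the libraries of a group drawn in the order of their replicate numbers and the group mean as a line. In every gene shown other than CEL ENSDARG00000029822 at 1.2 nM against DMSO the groups overlap, and in all of them replicate 2 is the highest library at 0.3 nM and at 1.2 nM.

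The median log2 fold change of the 8 genes was -0.01 for 0.3 nM against DMSO, 0.24 for 1.2 nM against DMSO and 0.25 for 1.2 nM against 0.3 nM, beside a median of 0.00 over all genes in each. The adjusted p-values (edgeR quasi-likelihood test) lay between 0.997 and 1.0, between 0.815 and 0.869, and at 0.993. The first and second comparisons share the DMSO libraries and the genes vary together, so 8 genes above DMSO are not 8 separate observations. The median at 1.2 nM was 0.13 without replicate 2 of that group and between 0.17 and 0.34 when another library was left out. For 0.3 nM the median was -0.22 without replicate 2 of that group.

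**Figure D4:**
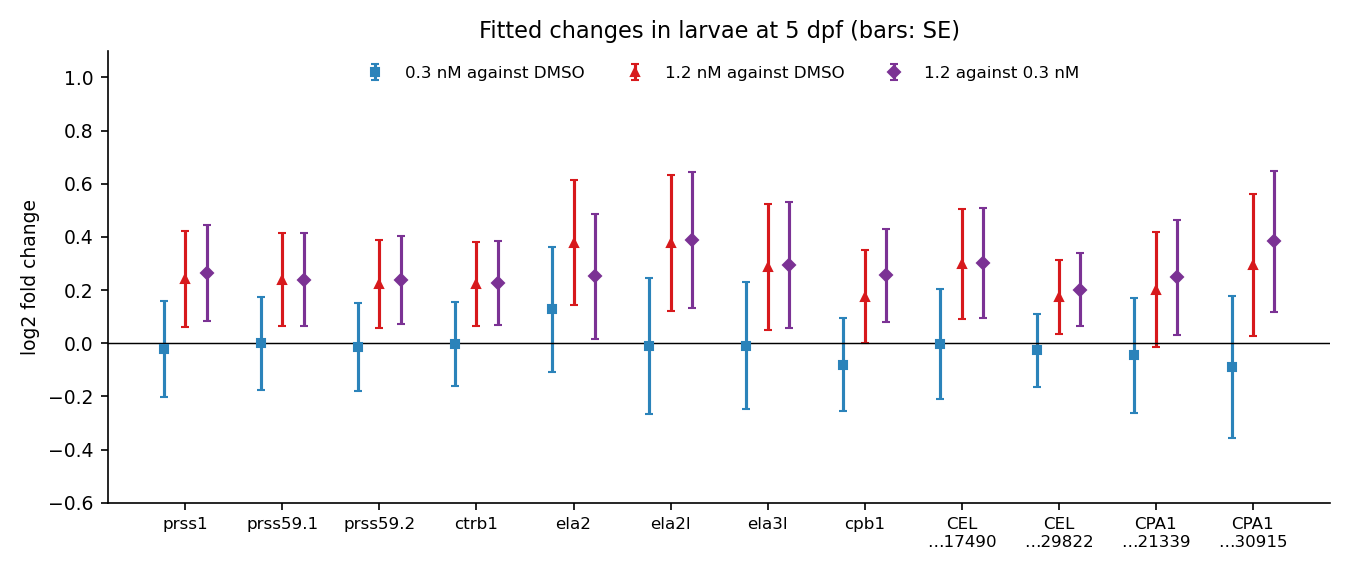
Fitted log2 fold changes in larvae for the 3 comparisons, with bars of 1 SE. Values for 0.3 nM lie between -0.09 and 0.13, those for 1.2 nM against DMSO between 0.17 and 0.38.

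The enzymes varied together over the 9 larval libraries. Over the 28 pairs of matched members, Pearson's r of log2 CPM was 0.903 to 0.998 (median 0.960), and 0.873 to 0.998 (median 0.952) with the group means removed. These correlations are given as a description, since the genes share libraries, RNA and depth. No range over pairs of other genes was set beside them. Genes outside the enzyme lists, picked by rank, also had a high r with the members' mean there, such as TATDN3 at 0.978 and ppp3cb at 0.959. Replicate 2 of 1.2 nM was the highest library for all 8 genes, and replicate 3 of 0.3 nM the lowest for all but ela2, which was lowest in DMSO replicate 2. The highest library exceeded the lowest by 1.62-fold for ctrb1 and by up to 2.13-fold for ela2l.

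The summed level of the 8 genes was 7752 ± 736 CPM in DMSO, 7717 ± 1890 CPM at 0.3 nM and 9254 ± 1488 CPM at 1.2 nM (mean ± SD, n = 3). As a share of all reads the genes took 0.857%, 0.764% and 0.720% in DMSO, 0.701%, 0.976% and 0.628% at 0.3 nM, and 0.898%, 1.07% and 0.793% at 1.2 nM. The spread within groups was wide for genes of this level. The within-group SD of log2 CPM was 0.224 for ctrb1 to 0.326 for ela2l, whereas its median was 0.141 over all 21719 genes and 0.0852 over the 1356 genes with at least 100 CPM, of which 94.5% had an SD below that of ctrb1.

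**Figure D5:**
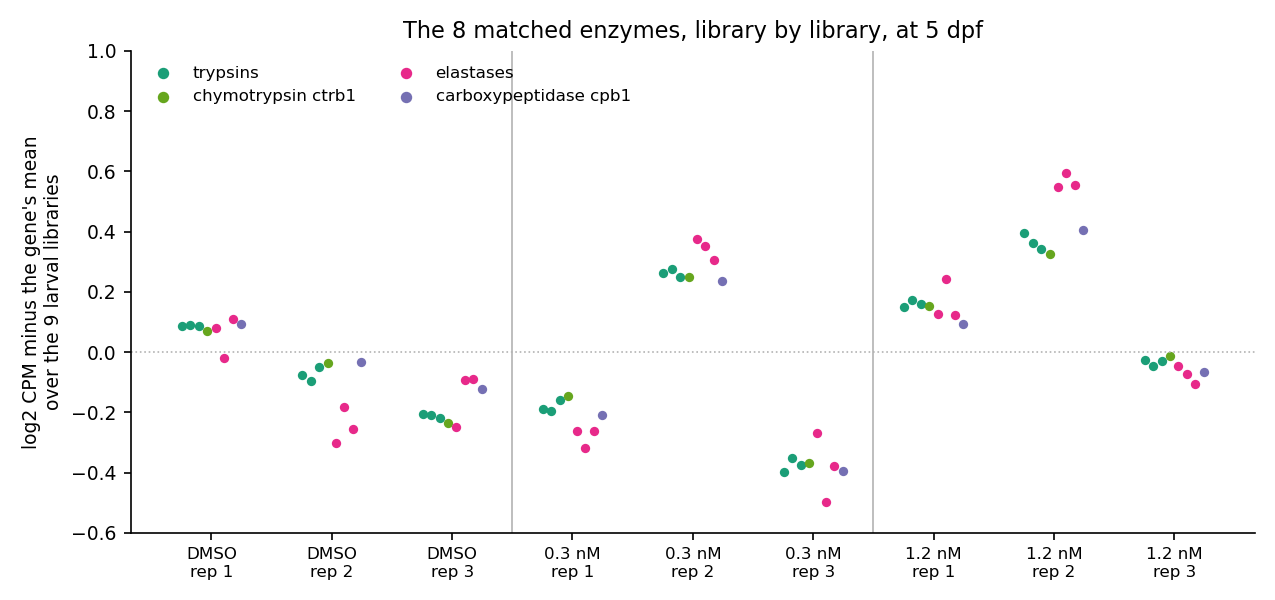
Log2 CPM of each of the 8 matched enzymes minus its own mean over the 9 larval libraries, 1 point per gene and library, coloured by enzyme class. Within a library the points lie close together, highest in replicate 2 of 1.2 nM and low in replicate 3 of 0.3 nM.

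The proportions between the enzymes were steadier than their levels. The reads of prss59.1 over those of prss59.2 were 0.716 to 0.751 in the 9 larval libraries, and the reads of prss1 over those of prss59.2 were 0.966 to 1.02. The elastases moved more than the trypsins and the chymotrypsin: their summed CPM over that of the 4 other proteases was 0.339 to 0.444, lowest in DMSO replicate 2 and highest in replicate 2 of 1.2 nM. These are ratios of counts, not of molecules, because the lengths differ.

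The other acinar secreted products followed the same libraries. Their summed level was 3434, 2766 and 2933 CPM in DMSO, 2753, 3840.05 and 2480.4 CPM at 0.3 nM and 3343, 4478 and 2985 CPM at 1.2 nM, again highest in replicate 2 of 1.2 nM. Of the 21 tested, 0 were called in any larval comparison. At 1.2 nM against DMSO 19 of 21 had a log2 fold change above 0 (median 0.18). No share of all genes above 0 is set beside this count, and these genes share libraries, so they are not separate observations. The smallest p belonged to the elastase gene cela1.5 (0.85, SE 0.27, adjusted p = 0.566, edgeR), followed by amy2al2 (0.42, SE 0.21), cuzd1.2 (0.28, SE 0.15) and dpep1 (-0.19, SE 0.11). The level of cela1.5 was low, with 35 reads over the DMSO larval libraries together.

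Summed levels of the liver and intestine lists were lowest of the 1.2 nM group in that library. These sums are not read as amounts of the organs. In DMSO embryos the liver list summed to 5784 to 7959 CPM and the intestine list to 12395 to 17181 CPM. In DMSO larvae they summed to 4783 to 5309 CPM and 10216 to 11418 CPM. The liver genes summed to 5607, 4954 and 5710 CPM at 1.2 nM, lowest in replicate 2, and the intestinal genes to 10760, 10101 and 10854 CPM, also lowest there. In the other groups the intestinal sum was highest in the library with the most enzyme reads, at 11418, 11138 and 10216 CPM in DMSO and 10591, 10973 and 10529 CPM at 0.3 nM. The endoplasmic reticulum genes were at 2647, 2099.7 and 2743 CPM at 1.2 nM and at 2739, 2407 and 2941 CPM at 0.3 nM, lowest in both where the enzymes were highest. In DMSO they were at 2757, 2944 and 2745 CPM, and there the library with the most enzyme reads, replicate 1, was not the lowest. The pancreatic transcription factors summed to 335, 304 and 334 CPM at 1.2 nM, lowest in replicate 2, while the endocrine genes summed to 378, 408 and 368 CPM, highest there. The endocrine list is not particular to the pancreas, as it summed to 894 to 939 CPM in DMSO brain and 350 to 366 CPM in DMSO larvae. Brain markers summed to 1028, 1107 and 1048 CPM at 1.2 nM, also highest in replicate 2. The part of library composition in the enzyme levels was not tested.

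None of these lists had a called gene in larvae at 1.2 nM against DMSO. The median log2 fold change was 0.11 for 23 liver genes, of which 22 lay above 0. Among them were fabp10a at 0.41 (SE 0.10, adjusted p = 0.293, edgeR) and serpina1 at 0.29 (SE 0.07, adjusted p = 0.277). At 0.3 nM against DMSO the liver median was also 0.11, with 20 of 23 above 0. No share of all genes above 0 is given, and genes of a list share libraries, so they are not separate observations. At 1.2 nM the median was -0.07 for 19 intestinal genes, -0.16 for 36 endoplasmic reticulum genes, 0.03 for 15 transcription factors and 0.02 for 12 endocrine genes. Within the endocrine list the smallest p belonged to neurod1, a transcription factor of endocrine cells and neurons, at 0.30 (SE 0.08, adjusted p = 0.298, edgeR). In the same list ins was at -0.32 (SE 0.12, adjusted p = 0.672, edgeR), slc30a8 at -0.68 (SE 0.26, adjusted p = 0.704) and gcga at -0.32 (SE 0.14, adjusted p = 0.731). Of the 12 endocrine genes 7 lay above 0, among them the hormone genes sst2 at 0.11 (SE 0.16) and pyya at 0.04 (SE 0.14). Among the transcription factors rbpjl was at 0.20 (SE 0.25), bhlha15 at -0.04 (SE 0.20) and ptf1a at 0.08 (SE 0.22).

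The order of the exposed libraries was compared with that of the AHR target. At 1.2 nM cyp1a was at 1066, 578 and 410.4 CPM, highest in replicate 1, while the enzymes were highest in replicate 2. At 0.3 nM cyp1a was at 75.2, 162 and 67.0 CPM, and there both were highest in replicate 2 and lowest in replicate 3. With 3 libraries in each group this order is a description.

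Other genes were ranked by how closely they followed the enzymes. Over the 8 group means (log2 CPM), the 4 genes with the highest Pearson's r with the mean of the 8 members were the chymotrypsinogen gene ctrb.2, baiap2l2a, zanl and the brush-border protease gene mep1a.1, with r from 0.999 to 1.0. At 5 dpf in DMSO these were at 468 ± 97.0, 12.0 ± 1.53, 156 ± 21.5 and 52.3 ± 3.01 CPM. All 4 were low in embryos and in brain, at most 1.25 CPM on average in every such group. The 8 means are mainly a high larval level and a low level elsewhere, and r does not measure the size of a rise. For baiap2l2a the rise was from 1.25 CPM in DMSO embryos to 12.0 CPM in DMSO larvae.

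Over the 9 larval libraries the list was different. The elastase gene CELA1 (ENSDARG00000017314) had the highest r with the members' mean at 0.986, followed by CEL ENSDARG00000017490 at 0.981, TATDN3 at 0.978, CPA1 ENSDARG00000030915 at 0.976 and the chymotrypsin-like gene ctrl at 0.968. After these came ppp3cb, BRPF3, CPA1 ENSDARG00000021339, PALLD and ENSDARG00000098836, down to 0.951. These 10 were picked by rank over 9 points from all genes above a minimum level, and no p is given.

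The effect of 0.3 nM was set against age in the fit of all libraries. There prss59.2, ctrb1, ela2l and ela3l passed the filter through the larvae. With 0 to 9 reads per embryo library only a large difference in these 4 could have been detected. For 0 of the other 4, and 0 of all 8, was the difference of the effects at 5 dpf and 48 hpf called, as for 0.0% of the 22545 genes tested (edgeR quasi-likelihood test, adjusted p = 1.0 each). No member reached an unadjusted p under 0.05, as 820 of all genes did. DESeq2 called 0, with 1 member under 0.05 unadjusted, and the share of all genes in that fit is not given. The differences ran from -0.74 for prss1 (SE 0.39) to 1.55 for ela3l (SE 2.21), which had 0 to 2 reads in each embryo library.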

How the data were processed

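RNA was measured by stranded, ribosome-depleted total RNA sequencing (single reads of 50 bases), per the labels' protocols. Per the submitters' processing notes, reads were checked with FastQC, aligned to GRCz10 with STAR and counted with HTSeq, and edgeR is named; the sources used here give neither their versions nor the annotation. The deposited files hold raw counts of reads per Ensembl gene ID, counted on the reverse strand in union mode as the names of the files state, with 26269 of 32105 IDs paired with a symbol through names tables. The members and all gene lists were chosen with earlier results of these data known.

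Counts were fitted in R 4.3.3 with edgeR 4.0.16 (TMM scaling, the filterByExpr filter on low counts, the robust quasi-likelihood test). P-values were adjusted over all genes tested by Benjamini-Hochberg, and a gene with an adjusted p below 0.05 is called. All groups of an age entered 1 fit; comparisons of ages used 1 fit of all 24 libraries. RNA of brain was extracted by another method than that of embryos and larvae, per the labels' protocols, and the brains were of adults. Tissue, age and extraction thus cannot be told apart there. The SE is the size of a log2 fold change over the square root of F. Pooled ratios carry exact binomial 95% intervals. Correlations used log2 CPM with a prior count of 2.

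The genes named are every member, listed genes that were called or have up to the 4 smallest p-values in a comparison described, any gene of the transcription factor and endocrine lists, cyp1a, and the genes most like the members' mean in pattern (minimum mean log2 CPM of 1); of the called genes of a list only examples are named. Some genes that this rule names are not reported here. The fits were tested on simulated counts with a common spread for all genes and changes set only in well-covered genes. The members' wider spread in larvae and low counts in embryos and brain were not covered by that test. DESeq2 1.42.0, other scaling and filtering, the replicate number as a block, and leaving out each library were alternatives.

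Same-numbered libraries deviated together at 48 hpf (correlation of deviations from the group means 0.330 to 0.464, against -0.204 for other pairs), by the data and not by the labels, so the block is given beside results there. No 2 libraries of a group agreed within counting noise. Where replicates came from is not stated beyond their being biological replicates, so p-values measure the spread between these samples.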

Additional observations from a re-analysis of the deposited data

How the results depend on the processing

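The count of called members was the same under every alternative run: 0 in the exposure comparisons at 48 hpf, at 5 dpf and in brain and for the difference of effects by age, and 8 of 8 for larvae against embryos and brain against larvae, with DESeq2, other size factors, no filter, no robust fitting, other sets of libraries, and each library left out. In brain DESeq2 gave no adjusted p for most members, and for no member at 1.2 nM against DMSO, so its count of 0 there could not have been otherwise for those. Same-numbered libraries of the 2 exposed larval groups had correlations of 0.0849 to 0.390, against -0.132 for other pairs, so a pairing there was not settled. Elsewhere in larvae and brain the correlations were -0.236 to 0.119. With the replicate block the count in larvae was also 0 of 8, and an unadjusted p under 0.05 was reached by 3 of 8 at 1.2 nM against DMSO and by 5 of 8 between the doses. The share of all genes under 0.05 in that blocked fit is not given, and the members vary together. These counts are therefore not read as a result about the members. Leaving out 1 library moved the members' median in larvae against DMSO from 0.13 to 0.34 at 1.2 nM and from -0.22 to 0.12 at 0.3 nM, and between the doses from 0.13 to 0.46. It turned signs at 48 hpf (prss59.1 -0.85 to 0.33, ela2 -0.43 to 0.05, cpb1 -0.07 to 0.32) and in brain, where the median ran from -0.03 to 0.54 at 0.3 nM, from -0.24 to 0.56 at 1.2 nM and from -0.44 to 0.50 between the doses. The number of all genes called moved more: from 2 to between 1 and 27 at 48 hpf, and in larvae from 10 to between 0 and 56 at 1.2 nM and from 5 to between 1 and 12 between the doses. In brain it moved from 2684 to between 960 and 4121 at 0.3 nM, from 1769 to between 13 (without replicate 3 of 1.2 nM) and 3434 at 1.2 nM, and from 19 to between 2 and 176. The depth limits embryos and brains, where most members had under 20 reads per library.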
